A study of Homo sapiens with 6 samples.

Results

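Expression of 42 genes that license, start and carry out DNA replication, most of them known targets of E2F transcription factors, was compared between JJ012 and C28 cells. The genes were taken as a fixed list of symbols, and their probes were found by the gene symbol of the array platform among 20046 named genes. A probe counted as measured when its detection value was above 0.99 on all 3 arrays of JJ012 or all 3 of C28, and 40 of the 42 genes had such a probe. JJ012 is a human chondrosarcoma line and C28 a chondrocyte line named as the control in the labels, with 3 Illumina expression arrays of each. Cells of both lines were seeded at 5000000 per dish and lysed 24 h later, with no further agent named. Chondrocyte lines known under the name C28 were immortalised with a viral large T antigen, a protein that binds RB, and the labels do not say how the line used here was made.

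Replication begins when CDC6 and CDT1 load the MCM helicase onto origins bound by the origin recognition complex, and geminin blocks reloading within the same cell cycle. Cyclin E, cyclin A and CDK2 then start the helicase together with CDC45 and the GINS complex, and primase, polymerases, the PCNA clamp and its RFC loader copy the strands. The genes for most of these proteins are transcribed in a wave before S phase, when E2F factors are released from RB and its relatives RBL1 and RBL2.

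The promoter stretches that hold an E2F-type motif are shown for the genes with calls and for examples of the main roles. Such a motif is the known mark of E2F targets. No promoter sequence was read to choose the genes, but most of them are known E2F targets. Their share with the motif is therefore not independent of that choice. They come from RefSeq promoter windows of assembly GRCh38.p14, which run from 250 bases before to 50 bases after an annotated transcript start, and 36 of the 42 genes had a window by symbol. Each stretch reads 5′ to 3′ on the strand of its gene, and capitals mark matches to TTTNNCGC on either strand, which may overlap.
CDC6, chr17:40287866-40287903, plus strand: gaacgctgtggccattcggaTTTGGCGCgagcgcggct
POLA1, chrX:24693761-24693808, plus strand: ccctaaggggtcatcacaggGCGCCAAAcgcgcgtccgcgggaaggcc
PCNA, chr20:5126654-5126701, minus strand: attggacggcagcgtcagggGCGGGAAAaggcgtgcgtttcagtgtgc
E2F1, chr20:33686372-33686527, minus strand: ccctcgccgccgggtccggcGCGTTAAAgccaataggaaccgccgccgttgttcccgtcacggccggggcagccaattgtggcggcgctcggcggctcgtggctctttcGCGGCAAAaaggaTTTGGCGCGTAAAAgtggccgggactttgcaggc
RBL1, chr20:37095986-37096043, minus strand: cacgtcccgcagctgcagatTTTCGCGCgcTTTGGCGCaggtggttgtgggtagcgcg
CDC25A, chr3:48188434-48188481, minus strand: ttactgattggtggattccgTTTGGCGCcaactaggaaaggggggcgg
MCM6, chr2:135876502-135876615, minus strand: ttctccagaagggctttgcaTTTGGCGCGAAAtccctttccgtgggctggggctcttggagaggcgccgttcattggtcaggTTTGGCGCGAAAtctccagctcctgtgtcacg
MCM7, chr7:100101379-100101604, minus strand: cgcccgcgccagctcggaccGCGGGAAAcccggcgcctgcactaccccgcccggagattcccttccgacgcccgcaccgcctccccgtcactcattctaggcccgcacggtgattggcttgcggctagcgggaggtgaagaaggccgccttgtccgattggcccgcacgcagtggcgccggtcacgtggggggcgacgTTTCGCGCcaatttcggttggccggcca
The motif TTTNNCGC, searched on both strands, was in 22 of 46 windows of the member genes (47.8%) and in 6.89% of all 35116 windows. By gene, 22 of 36 members (61.1%) had it in at least 1 window, against 8.23% of 27305 genes. The CCAAT box, searched in the same way, was in 56.5% of the member windows and 34.6% of all windows. CDC6, the gene called higher in JJ012, and POLA1 and PCNA, the genes called lower, each carried 1 match in the stretch shown, as did CDC25A, whose expression did not pass the test. A match is a description of the letters and was not tested as a binding site.

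Median probe intensity was 84.4 to 95.6 on the JJ012 arrays and 90.8 to 101.6 on the C28 arrays. No label states whether replicate arrays stem from separate cultures, and p-values therefore cover only the spread among these arrays, perhaps technical in origin. JJ012 replicate 1 stood apart. Over 57 probes with bright signal in C28 but none on JJ012 replicate 2, it read a median of 10.5% of the C28 level, and JJ012 replicate 3 read 2.32%, so results are also given below without replicate 1. Of 10 chondrocyte markers 2 were measured, SOX9, detected in both lines, and MATN3, detected on all arrays of C28 only. Aggrecan and type II collagen were among those not measured. All C28 arrays also detected 4 of 5 fibroblast markers, 3 of 4 epithelial markers and 1 of 3 blood cell markers. All JJ012 arrays detected 2, 1 and 1 of these.

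Between the lines the replication genes differed little in size. By limma, with genes called where the adjusted p was under 0.05 and the fold change 2 or more, 1 of the 40 measured members was higher in JJ012 (CDC6) and 2 were lower (POLA1 and PCNA), which is 7.5% of the members against 31.3% of the 11515 genes tested. Of all genes 13.7% were called higher and 17.6% lower. Among genes detected on all 6 arrays and fitted alone, 7.69% of the members and 21.9% of all genes were called. On p alone the share was near that of all genes. An adjusted p under 0.05 was reached by 27 members (67.5%), 10 higher and 17 lower, against 72.5% of all genes (34.4% higher and 38.1% lower). The 17 include E2F8, which was detected on 0 JJ012 arrays and entered the fit through C28 alone. With arrays scaled to a common median, which moved all genes to a median of −0.23, the split was 3 higher and 19 lower. Without each array in turn 15 of the 27 passed every time, and CDT1, MCM6, E2F1, MYBL2, RRM1, RRM2, TYMS, RFC3, POLD1, PRIM1, RPA2 and FEN1 missed the threshold in at least 1 of these fits. The values of the lines did not overlap in 28 members (70%) and in 76.2% of all genes. In bulk RNA, fewer cells in S phase and less transcript per cell cannot be told apart.

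The median log2 fold change of the 40 members, JJ012 minus C28, was −0.0009, with an interquartile range of −0.48 to 0.23. Over all genes it was −0.04 (−0.70 to 0.55). Regardless of sign, the median difference was 0.38 on the log2 scale for members, 0.62 for all genes and 0.51 among genes that all 6 arrays detected. The 95% confidence interval of the difference lay wholly within 2-fold for 33 members (82.5%) and for 55% of all genes, with a median SE of 0.12 in both. For those 33 genes the interval bounded the difference below 2-fold for the probe used and this normalization only, which does not show equal levels. Among them, RFC3 had a further, dim probe at 1.43, and the interval of a second CDK2 probe reached −1.11. GINS2, also among them, moved to −0.91 with arrays scaled to a common median.

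**Figure D1:**
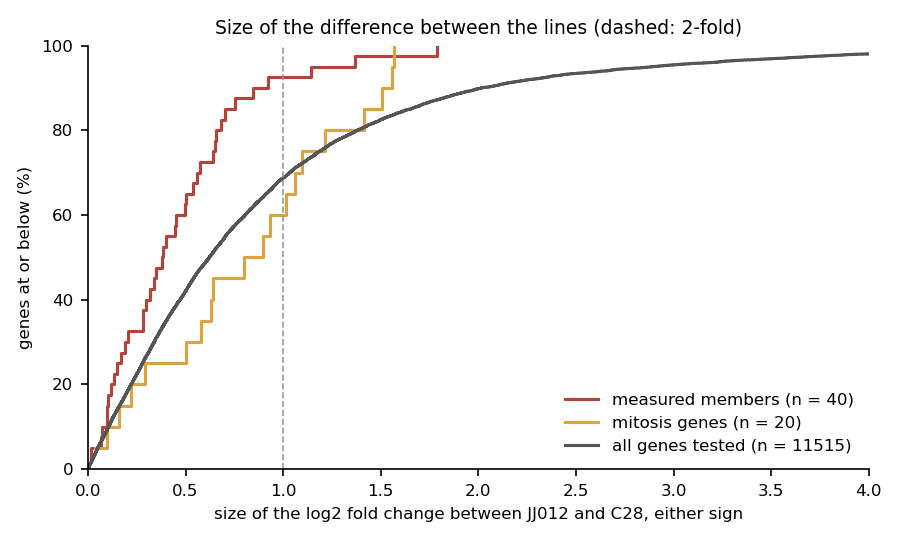
Distribution of the size of the log2 difference between JJ012 and C28, regardless of sign. Curves are drawn for the 40 measured replication genes, for the 20 mitosis genes given below and for all 11515 genes tested. The members have a median of 0.38 and all genes a median of 0.62, and the largest member is POLA1 at 1.79.

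Among the licensing genes CDC6, the loader that brings the MCM helicase to the origin, rose in JJ012. Its log2 signal was 6.93, 7.48 and 7.33 on the JJ012 arrays and 5.78, 6.06 and 5.80 on the C28 arrays. Every JJ012 array was above every C28 array. The log2 fold change was 1.37 (SE 0.16, 95% interval 1.00 to 1.74, adjusted p = 0.000111), or 2.58-fold. The signal was dim, with deposited intensities of 165.7, 203.9 and 217.2 in JJ012 and 132.4, 129.3 and 123.9 in C28, not far above the median intensity of all probes. The size of the difference therefore depended on the background correction, and without one it was 0.82.

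CDT1, which loads the helicase together with CDC6, averaged 9.54 ± 0.21 in JJ012 and 9.89 ± 0.09 in C28 (log2 signal with SD, n = 3 each), which is a log2 fold change of −0.35 (adjusted p = 0.0358). Geminin (GMNN), the inhibitor of CDT1, read 0.19 and did not pass the test (adjusted p = 0.0918, 95% interval −0.02 to 0.40). The 3 licensing genes thus gave 1 difference in each direction and 1 without a difference past the test.

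The 6 subunits of the MCM2 to MCM7 helicase ring did not move one way. MCM4 averaged 11.92 ± 0.25 in JJ012 and 11.22 ± 0.09 in C28, a difference of 0.70 (SE 0.14, adjusted p = 0.00194), and MCM5 was higher by 0.54 (adjusted p = 0.00359). MCM2 at −0.38 (adjusted p = 0.0048) and MCM6 at −0.32 (adjusted p = 0.0323) were lower. MCM3 and MCM7, each at 0.10, did not pass the test (adjusted p = 0.352 and 0.389). No subunit reached 2-fold, and the 95% interval of MCM4 alone, 0.39 to 1.02, extended past it. MCM10, which acts in helicase activation, read 10.75, 11.09 and 10.82 in JJ012 and 10.82, 11.01 and 10.88 in C28. The ranges overlapped, and its log2 fold change of −0.02 (SE 0.12, 95% interval −0.29 to 0.26, adjusted p = 0.914) was among the smallest of the members.

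The activators of the helicase were lower in JJ012 by less than 2-fold. CDC45, which completes the active helicase, read 11.50, 11.97 and 11.67 in JJ012 and 12.36, 12.36 and 12.34 in C28, a log2 fold change of −0.64 (adjusted p = 0.00241). GINS2, a subunit of the GINS complex, read 11.37, 11.49 and 11.53 in JJ012 and 12.32, 12.16 and 12.16 in C28, giving −0.75 as the log2 fold change (SE 0.10, adjusted p = 0.0002). GINS3, another subunit, differed by −0.65 (adjusted p = 0.000858). In all of these genes every JJ012 array was below every C28 array. GINS4, of the list on origin recognition and firing, went the other way at 0.87 (adjusted p = 0.0109), short of 2-fold, and is named after its value was seen. GINS1 was not measured, with 0 JJ012 arrays and 1 C28 array above the detection limit.

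**Figure D2:**
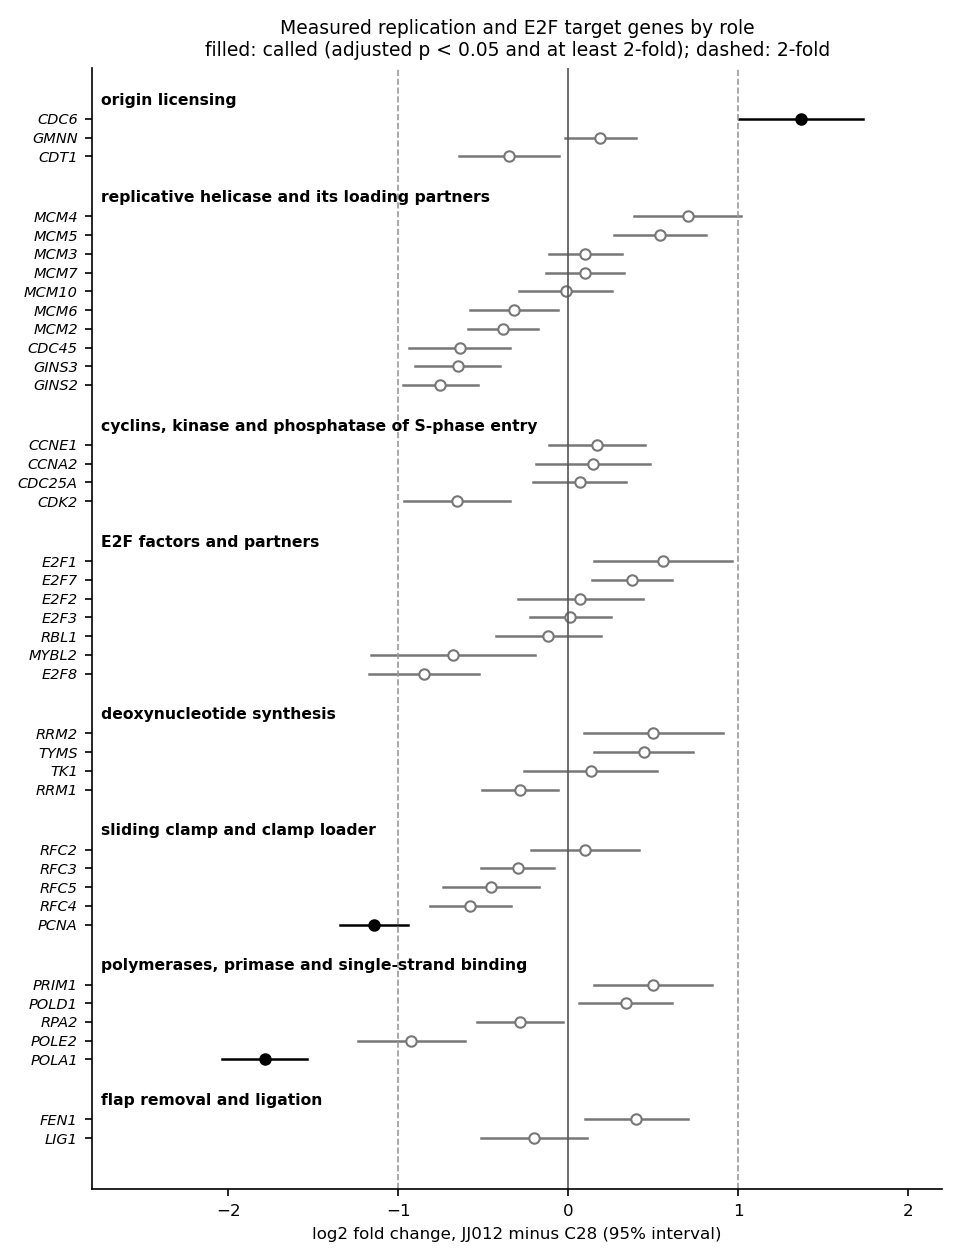
Log2 fold change of each measured replication gene, JJ012 minus C28, with its 95% confidence interval, grouped by role. CDC6 at 1.37, PCNA at −1.14 and POLA1 at −1.79 lie beyond the 2-fold lines, and most other intervals stay between them.

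Among the cyclins, kinase and phosphatase of S-phase entry, CDK2 was the gene that passed on p alone. It averaged 10.55 ± 0.24 in JJ012 and 11.20 ± 0.10 in C28, a log2 fold change of −0.65 (adjusted p = 0.00274). CCNE1 (cyclin E) at 0.17, CCNA2 (cyclin A) at 0.15 and CDC25A, a phosphatase that activates CDK2, at 0.07 did not pass the test, with adjusted p-values of 0.243, 0.382 and 0.622. CCNE2, a second cyclin E gene, was not measured, with 1 JJ012 array and 2 C28 arrays above the detection limit.

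None of the E2F genes was called, and those that passed on p alone went both ways, with the limits given here. E2F1, an activator, read 7.49, 7.68 and 8.08 in JJ012 and 7.40, 6.96 and 7.22 in C28, giving 0.56 as the log2 fold change (SE 0.18, adjusted p = 0.0205). E2F7, a repressor of the family, was higher by 0.38 (adjusted p = 0.0104). With median scaling neither passed the test, E2F1 at 0.32 (adjusted p = 0.145) and E2F7 at 0.17 (adjusted p = 0.226). E2F8, the repressor most like E2F7, was detected on 0 JJ012 and 3 C28 arrays, which bounds the difference at least 1.29-fold lower. That bound sets the C28 mean against the higher of the detection floor and the signal on each JJ012 array. The limma fit gave −0.85 (adjusted p = 0.000814). Its p is not a test of the bound, since the fit used JJ012 signal below the detection limit. MYBL2, an E2F target that itself drives later cell cycle genes, differed by −0.68 (adjusted p = 0.0183). E2F3, an activator, read 10.02, 9.78 and 10.04 in JJ012 and 9.91, 9.90 and 9.98 in C28, giving 0.01 as the log2 fold change (SE 0.10, 95% interval −0.22 to 0.25, adjusted p = 0.914). E2F2 at 0.07 and RBL1, the RB relative p107, at −0.12 did not pass the test either (adjusted p = 0.7 and 0.449).

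The 4 member genes for enzymes of deoxynucleotide supply were not called. The subunits of ribonucleotide reductase had fold changes of opposite sign, with the small subunit RRM2 at 0.50 (adjusted p = 0.0322) and the large subunit RRM1 at −0.28 (adjusted p = 0.0275). With 1 array left out RRM2 passed in 1 of 6 fits and RRM1 in 2, and with median scaling RRM2 was at 0.28 (adjusted p = 0.168). TYMS, which makes thymidylate, was higher by 0.44 (adjusted p = 0.0131). TK1, the thymidine kinase of the salvage route, read 0.13 (adjusted p = 0.5).

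PCNA, the ring that holds polymerases on DNA, fell in JJ012. Its log2 signal was 12.54, 12.52 and 12.45 on the JJ012 arrays and 13.70, 13.64 and 13.59 on the C28 arrays, with the deposited intensities at 5577.4, 5175.1 and 5617.0 in JJ012 and 15076.4, 11492.9 and 12600.6 in C28. The arrays of each line lay within a narrow band and the bands were far apart. The log2 fold change was −1.14 (SE 0.09, 95% interval −1.34 to −0.94, adjusted p = 1.21e-05), or 2.2-fold lower. A second measured PCNA probe read −0.69 (adjusted p over all probes 0.00574), and with the mean of the probes PCNA was at −0.91 and not called.

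Of the clamp loader subunits, RFC4 at −0.58 (adjusted p = 0.00122), RFC5 at −0.45 (adjusted p = 0.0104) and RFC3 at −0.30 (adjusted p = 0.0199) were lower without reaching 2-fold, and RFC2 at 0.10 did not pass the test (adjusted p = 0.53). RFC3 had further probes at −0.14 (adjusted p = 0.284) and 1.43 (adjusted p = 0.0144). The probe at 1.43 was dim and was detected on 1 of 3 C28 arrays. RFC1, the large subunit and no member of the list, fell by 1.05 on the log2 scale (adjusted p = 5.24e-05), and was not called without JJ012 replicate 2, at −0.97, or with no background correction, at −0.99.

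POLA1, the catalytic subunit of polymerase alpha, which extends the primer on each new strand, had the largest difference of the 40 genes. Its log2 signal was 9.73, 9.85 and 9.83 on the JJ012 arrays and 11.42, 11.71 and 11.65 on the C28 arrays. Deposited intensities were 809.2, 840.5 and 936.4 in JJ012 and 3414.7, 3307.4 and 3480.9 in C28, so the gap was present before any correction. The log2 fold change was −1.79 (SE 0.11, 95% interval −2.04 to −1.54, adjusted p = 4.22e-06), or 3.45-fold lower. A second probe read −1.21 (adjusted p over all probes 0.000107).

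Of the called genes PCNA lay nearest to 2-fold. Among the genes short of 2-fold, POLE2, an accessory subunit of the leading-strand polymerase epsilon, came nearest to a call. It read 9.38, 9.80 and 9.40 in JJ012 and 10.33, 10.52 and 10.49 in C28, giving −0.92 as the log2 fold change (SE 0.14, 95% interval −1.24 to −0.61, adjusted p = 0.000432). The groups did not overlap. Without JJ012 replicate 2 it was called, at −1.05. PRIM1, the primase that works in 1 complex with POLA1, was higher by 0.50 (adjusted p = 0.0173), and POLD1, the catalytic subunit of polymerase delta, by 0.34 (adjusted p = 0.0319). RPA2, a subunit of the single-strand binding complex, differed by −0.28 (adjusted p = 0.045). FEN1, the nuclease that trims Okazaki fragments, was higher by 0.40 (adjusted p = 0.0241), and the ligase LIG1 at −0.20 did not pass the test (adjusted p = 0.208).

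**Figure D3:**
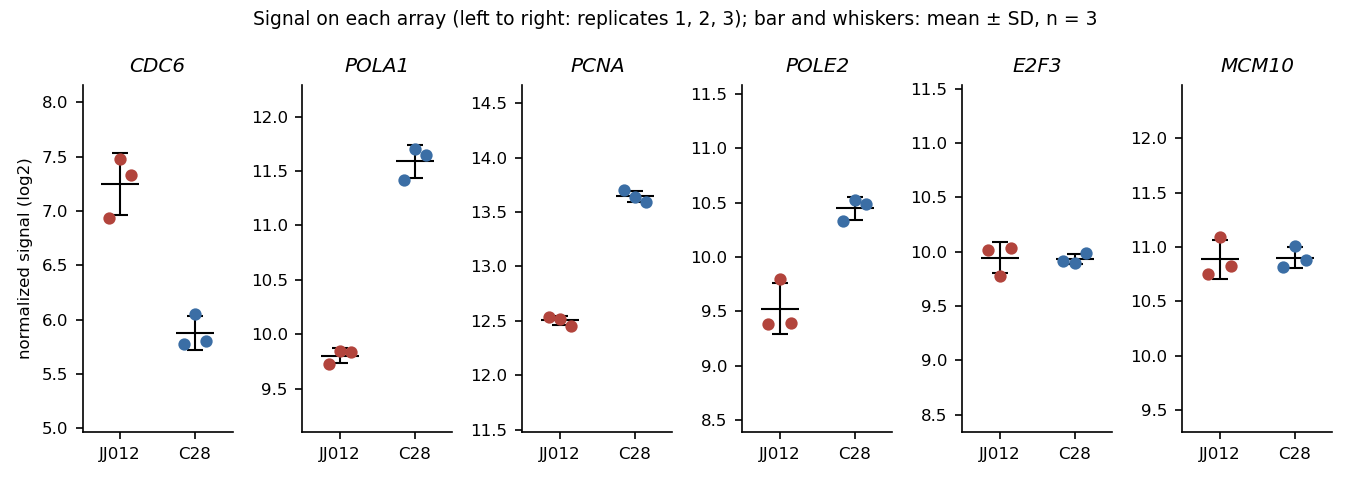
Normalized log2 signal on each array for the called genes CDC6, POLA1 and PCNA, for POLE2 just short of 2-fold, and for MCM10 and E2F3. JJ012 is left of C28, with a line at each mean. The points of the lines are apart for the called genes and POLE2 and overlap for MCM10 and E2F3.

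Further subunits of the same polymerases were read from a wider list of polymerase, clamp loader and single-strand binding genes, and are named here after their values were seen, apart from POLA2 and RPA1. For polymerase alpha and primase, POLA2 fell by 1.14 on the log2 scale (SE 0.19, adjusted p = 0.000854), as POLA1 did, while PRIM2 read −0.16 (adjusted p = 0.493). POLA2 read 9.08, 9.87 and 9.54 in JJ012 and 10.73, 10.57 and 10.60 in C28, and without JJ012 replicate 1 it was at −0.93 and not called. For polymerase epsilon, the catalytic subunit POLE at −0.74 and POLE3 at −0.29 were lower and POLE4 at 0.38 higher (adjusted p = 0.000518, 0.0134 and 0.0092). For polymerase delta, POLD2 at 0.65, POLD3 at 0.82 and POLD4 at 0.94 were all higher, with adjusted p-values of 0.000913, 0.00067 and 0.00024, short of 2-fold as POLD1 was. RPA1, the large subunit of the single-strand binding complex, rose by 1.03 (adjusted p = 4.47e-05, not called at 0.96 without JJ012 replicate 2, at 0.87 with median scaling or at 0.82 with its probes averaged), and RPA3 read 0.30 (adjusted p = 0.0124). Subunits of 1 complex thus differed unequally between the lines.

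Where a gene had several measured probes they mostly gave like values. The 61 probes of the members included 54 measured ones, and 13 genes had more than 1. The median gap between log2 fold changes of probes of the same gene was 0.20. Probes of opposite sign were found in 2 genes, MCM10 and RFC3. For PCNA and POLA1 all measured probes were lower in JJ012.

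**Figure D4:**
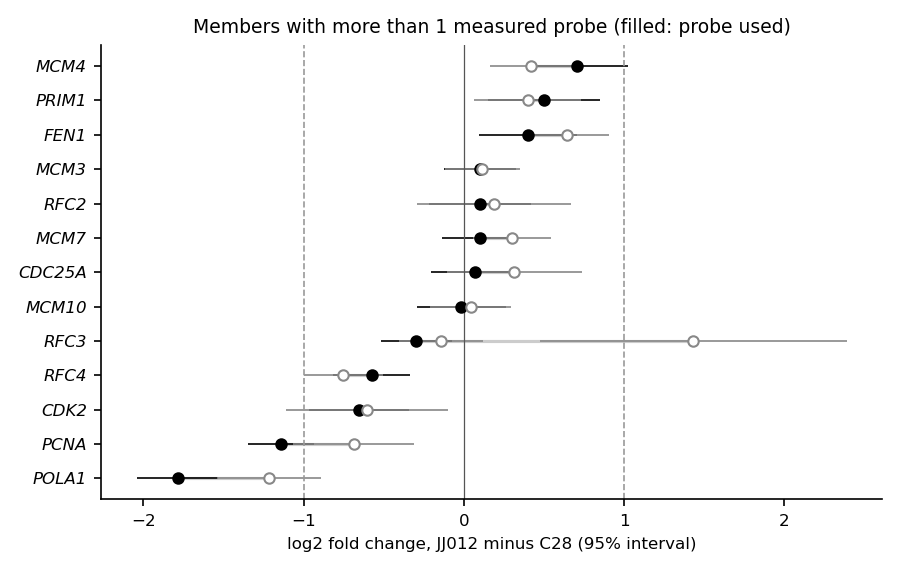
Log2 fold change, JJ012 minus C28, of every measured probe of the 13 replication genes with more than 1, with the probe used for the gene marked apart. PCNA and POLA1 are below 0 on all probes, and RFC3 has a dim probe at 1.43 beside probes at −0.30 and −0.14.

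The JJ012 arrays stood in a recurring order in these genes. JJ012 replicate 1 was the lowest array of its line in 35 of the 40 members (87.5%), against 37.6% of all genes, and replicate 2 was the highest in 25 (62.5%), against 38%. Replicate 2 exceeded replicate 1 in 37 of 40 members by a median of 0.31 on the log2 scale, while over all genes it did so in 50.6% with a median of 0.00. TK1 read 10.92, 11.62 and 11.29 on JJ012 replicates 1, 2 and 3, and RRM2 8.80, 9.53 and 9.22. In the mitosis list given below, replicate 2 exceeded replicate 1 in 18 of 20 genes, with a median of 0.54. Replicate 1 was the lowest JJ012 array in 14 of them (70%). In the 7 other lists given below, 60% to 84.6% of the genes were higher on replicate 2 than on replicate 1. The median SD within JJ012 was 0.19 for members and 0.15 for all genes, and within C28 it was 0.08 and 0.11. Replicate 1 is also the array that read highest, at 10.5% of the C28 level, on the 57 probes bright in C28. Those probes were chosen as undetected on replicate 2, so a low reading there was fixed, and the origin of the signal was not tested. After this share was subtracted from each JJ012 array, replicate 1 was lowest in 37 of 40 members (92.5%). The share of all genes lowest on it also grew, from 37.6% to 44.8%. What sets the arrays apart was not tested. CDC6 was at 1.54, PCNA at −1.14 and POLA1 at −1.74 without replicate 1.

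**Figure D5:**
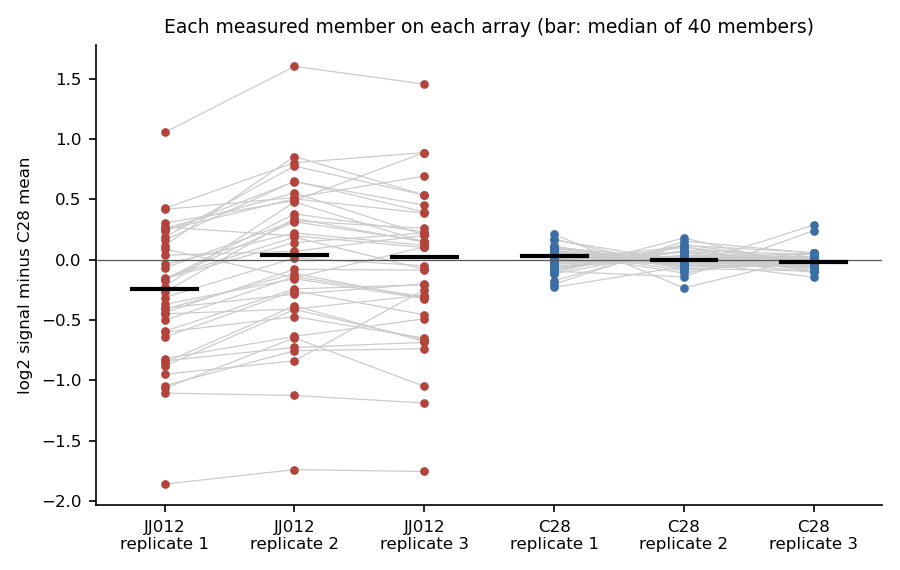
Log2 signal of each of the 40 members minus its C28 mean, by array, with JJ012 arrays left of C28 arrays and the median marked. The medians are −0.25, 0.04 and 0.02 on JJ012 replicates 1, 2 and 3, and 0.03, −0.00 and −0.02 on C28 replicates 1, 2 and 3.

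Other genes of replication and its control, in 7 lists, were called in 19 of 108 measured cases (17.6%), 5 higher and 14 lower, against 31.3% of all genes. In origin recognition and firing 0 genes were higher and 1 of 17 lower by limma. The counts were equal without adjustment. For higher genes this was fixed by the fold limit, since the highest log2 fold change was 0.87. Without JJ012 replicate 1 there was 1 higher. The lower gene was TICRR, which helps CDC45 to join the helicase, at −1.40 (SE 0.16, adjusted p = 0.000117). The origin recognition subunits ORC1 at 0.72 and ORC2 at 0.76, named after their values were seen, passed on p alone (adjusted p = 0.000684 and 0.000107). Of the polymerase, clamp loader and single-strand binding genes 1 of 18 was higher and 3 lower, including RNASEH2A, which removes RNA from DNA, at −1.68 (adjusted p = 2.91e-06).

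Fork protection and checkpoint genes were called higher in 3 of 14 cases and lower in 0, against 13.7% and 17.6% of all genes. RAD9A, a subunit of the checkpoint clamp, read 7.59, 7.88 and 7.72 in JJ012 and 6.15, 5.95 and 5.94 in C28, giving 1.71 as the log2 fold change (SE 0.11, adjusted p = 6.13e-06). TONSL, which guards stalled forks, followed at 1.05 (adjusted p = 0.00299), with 1 of 3 C28 arrays detecting it. CLSPN, the adaptor of the kinase CHEK1, was at 1.00 (adjusted p = 0.000401). The count of lower genes was also 0 by limma at an unadjusted p under 0.05 and 2-fold. That was fixed by the fold limit, since the lowest log2 fold change was −0.69. The count of lower genes was 1 with the probes of a gene averaged or with the dimmest probe. TONSL and CLSPN are dim, and RAD9A alone was called without C28 replicate 1 (TONSL at 0.93 and CLSPN at 0.94), without JJ012 replicate 3 (0.86 and 0.99), with median scaling (0.92 and 0.80) and with no background correction (0.53 and 0.59).

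Nucleotide supply genes were higher in 1 of 16 cases and lower in 4. The 31.2% called were near the 31.3% of all genes (13.7% higher and 17.6% lower). TYMP, which breaks down thymidine, rose by 1.06 (adjusted p = 6.44e-05), but lost the call in 6 alternatives, at 0.99 without JJ012 replicate 2, at 0.85 with median scaling and between 0.98 and 0.99 with array weights, with weaker or no background correction and with the authors' values. The deaminase DCTD at −1.65 (adjusted p = 1.36e-05), the p53-responsive reductase subunit RRM2B at −1.60 (adjusted p = 3.79e-06) and the dUTPase DUT at −1.19 (adjusted p = 1.21e-05) fell.

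Of the RB, E2F and DREAM partners 1 of 15 was called, and 2 without JJ012 replicate 2, with median scaling or with array weights. RBL2, the RB relative p130 of resting cells, read 8.85, 9.02 and 8.78 in JJ012 and 10.03, 10.18 and 10.02 in C28, giving −1.19 as the log2 fold change (SE 0.10, adjusted p = 2.5e-05). RB1 itself was at −0.92 (adjusted p = 0.00021) and the repressor E2F6 at 0.90 (adjusted p = 4.19e-05), both named after their values were seen and both short of 2-fold. Of 15 S-phase entry regulators 5 were lower and 0 higher by limma, and the 33.3% called were near the 31.3% of all genes. The counts were equal without adjustment of the p. For higher genes this was fixed by the fold limit, since the highest log2 fold change was 0.996. Over genes detected on all 6 arrays 2 were lower, and 1 was higher without C28 replicate 2, without JJ012 replicate 2, with array weights, with the C28 share subtracted and with the dimmest probe. CCNA1, the germline cyclin A, read 6.70, 4.47 and 5.31 in JJ012 and 9.91, 9.88 and 9.80 in C28, giving −4.37 as the log2 fold change (SE 0.48, adjusted p = 8.44e-05), with 1 of 3 JJ012 arrays detecting it. CABLES1, a CDK2-binding protein, was at −3.15 (adjusted p = 8.66e-06), also detected on 1 JJ012 array. In both genes the JJ012 array that detected it was replicate 1, and without that array the fitted values, which are no bounds, were −5.00 and −3.44. The CDK inhibitor CDKN1B (p27) read 8.80, 8.86 and 8.76 in JJ012 and 10.34, 10.23 and 10.13 in C28, giving −1.43 as the log2 fold change (SE 0.09, adjusted p = 6.54e-06). Genes of chromatin behind the fork, such as the histone chaperones CHAF1A and CHAF1B, gave 0 calls among 13 by limma. The largest log2 fold change of either sign was −0.64, so the fold limit alone fixed this count, whether or not the p was adjusted. On adjusted p alone 3 were higher and 1 lower.

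As a comparison from another stage of the cell cycle, 20 mitosis genes were called in 8 cases (40%), 1 higher and 7 lower, against 31.3% of all genes (13.7% higher and 17.6% lower). Their median log2 fold change was −0.72, and that of all genes −0.04. The kinase gene AURKA at −1.57 (adjusted p = 8.8e-06), the cyclin gene CCNB2 at −1.56 (adjusted p = 9.24e-06) and the kinetochore gene CENPF at −1.5 (adjusted p = 0.000268) were lower, and BIRC5, the survivin gene, rose by 1.41 (adjusted p = 0.000449) but was not called on its dimmest measured probe (0.73). With no background correction 4 of the mitosis genes were lower, and 3 where replicate 2 stood for JJ012 alone. The difference between the mitosis list and the replication genes was not tested.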

How the data were processed

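Total RNA of JJ012 and C28 cells was measured on Illumina arrays, 3 per line. The authors deposited 1 intensity per probe and array on a linear scale, not background-corrected, and a detection fraction headed as a p-value. Bright probes stand at 1, and the column was taken as 1 minus the p of detection. A further deposited table holds the authors' log2 values, each probe centred on its median. Its column medians are −0.003, 0.004 and 0.003 for JJ012 and −0.001, −0.001 and 0 for C28, its scale and direction were found from the intensities, and the normalization behind it stays unknown. It served as an alternative only.

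In R 4.3.3, the neqc function of limma 3.58.1 corrected the background and applied quantile normalization (offset 16, negative controls inferred from detection values). A probe was measured with a detection value above 0.99 on all 3 arrays of a line, which held for 19384 of 47231 probes, and a gene was represented by its measured probe with the highest mean signal. Symbols came from the platform annotation, with 30113 probes having 1 symbol, 8 several and 17110 none. Of these probes 30074 matched a RefSeq table of GRCh38.p14. All 11515 genes entered lmFit and eBayes (two-sided), with Benjamini-Hochberg adjustment over all of them and a call at an adjusted p under 0.05 and 2-fold. The fit was tested on simulated data that used the C28 spread for both lines and differences larger than 2-fold. That test does not cover the wider spread of the JJ012 arrays or smaller differences. The small number of arrays limits precision. Figures were drawn with matplotlib 3.10.9.

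The members, the other gene lists and the alternatives were chosen with earlier results of these data known, so no list was tested as a set. Full values are given for called members, those nearest the fold threshold and the 2 smallest changes, and of each other list for at most 3 called genes in each direction. Values per array of CDC45, GINS2, E2F1, TK1, RRM2 and some list genes were added after they were seen.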

Additional observations from a re-analysis of the deposited data

How the results depend on the processing

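The 2 members lower and 1 higher kept these calls in most alternatives. CDC6 lost its call, leaving 0 higher, with normexp without negative controls (0.86), with no background correction (0.82) and with the authors' values (0.82). PCNA lost its call, leaving 1 lower, with probes of a gene averaged (−0.91) and with the dimmest measured probe (−0.69), where RFC3 turned to 1.43 and made 2 higher. POLE2 was called with median scaling (−1.11), array weights (−1.05), the C28 share subtracted (−1.0) and without JJ012 replicate 2 (−1.05). With each array left out in turn 1 was called higher every time and 2 to 3 lower. The median log2 fold change of the members ranged from −0.09 to 0.02 over these fits, reached 0.06 in the other alternatives but was −0.20 with median scaling, where that of all genes moved to −0.23 from −0.04.

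Median scaling also changed the members past an adjusted p of 0.05 from 10 higher and 17 lower to 3 and 19, and the lower share of all calls from 56.3% to 67.0%. Leaving out arrays gave 5 to 12 higher, lowest without C28 replicate 2, with 6 without JJ012 replicate 3, and 11 to 17 lower, lowest without C28 replicate 3. JJ012 replicate 2 as the lone JJ012 array, assumed to vary like C28, gave 11 lower. Of the 27 members, 12 passed with the same sign in every alternative that tested them. They were 2 higher (CDC6 and MCM4) and 10 lower (MCM2, CDC45, GINS2, GINS3, CDK2, E2F8, PCNA, RFC4, POLA1 and POLE2). E2F8, measured through C28 alone, was tested in 19 alternatives and the others in 20. It is absent among genes detected on all 6 arrays. RFC3 was the exception to a constant sign. The number of all genes called was 3599, and 2057 for genes detected on all 6 arrays. The cause of these shifts was not tested.

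With the replicate number as a block the members called stayed at 1 higher and 2 lower, and 9 higher and 15 lower passed on p alone. Same-numbered arrays had correlations of deviations of −0.109, −0.116 and 0.073 across genes, and arrays of unlike number −0.097 to 0.166. Deviations from the mean of 3 arrays depend on each other, so these values cannot settle whether the numbers pair the arrays.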
